A study of Mus musculus with 6 samples.

Results

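The genes described here were the integrins and laminins of the mouse heart, 37 of the 54532 genes in the deposited table of FPKM values (fragments mapped to a gene, scaled by its length and by the depth of the library). They were chosen by symbol and biotype, as the protein-coding genes whose name began with Itga, was Itgb1 to Itgb8, or began with Lama, Lamb or Lamc and a digit. The rule used no measured value, but it was set with earlier results of these data known. The samples were hearts of mice aged 12 weeks, 3 homozygous Mc4r knockouts (Mc4r KO) and 3 wild types (WT), and the study asked how loss of the melanocortin 4 receptor alters gene expression early in heart disease. All mice were C57B/6/N, and per the study's methods both genotypes came from matings of heterozygous parents, with the wild-type littermates as controls. The knockout was in the germ line, so the receptor was missing from every tissue of the animal and not only from the heart, and the line was a purchased one. The labels give no sex, and the study describes the mice of its cardiac function measurements as male. The labels give the tissue as heart, while the study's text calls the sequenced tissue left ventricle. Each sample gave 1 library.

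Laminins are the cross-shaped trimers of the basement membrane, the sheet of matrix that wraps every cardiac myocyte and underlies every capillary. Each trimer joins an alpha, a beta and a gamma chain, and the alpha chain carries the domains that cells bind. Integrins are the matching receptors at the cell surface, each a pair of an alpha and a beta subunit that ties the matrix outside to the actin cytoskeleton inside. Beta 1 is the common partner of the alpha subunits that bind laminin and collagen, whereas alpha v pairs with several beta subunits and binds matrix proteins that carry the RGD peptide, and the beta 2 family is made by leukocytes. In the myocyte the laminin receptors sit at the costameres beside the dystroglycan complex, and loss of the laminin alpha chain encoded by Lama2, or of integrin alpha 7, gives muscular dystrophy.

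Between 14691076 and 16047003 reads fell on genes in each library, and FPKM values times gene length gave whole reads. Mc4r itself had 2 reads in WT replicate 3 and 0 in each of the other 5 libraries, 2 WT and 3 Mc4r KO, so its transcript could not check the genotypes. The titles call the tissue muscle while the tissue field says heart. Myh6, the main myosin heavy chain of the adult mouse heart, lay between 2231 and 3082 FPKM. WT replicate 3 stood apart from the other libraries. It separated on the second principal component, which held 23% of the variance, and the summed level of 7 atrial markers was 857.9 FPKM in it against 13.13 to 150.2 in the others, in tissue that the study calls left ventricular. The mitochondrial chromosome took 59.3%, 57.4% and 47.1% of the summed FPKM in WT replicates 1 to 3 and 43.0% to 46.6% in Mc4r KO, which do not overlap. In this share WT replicate 3 was close to Mc4r KO, and WT replicates 1 and 2 were the ones apart. A fit without WT replicate 3 therefore compares genotypes that differ more in this share. Leaving out WT replicate 3 or adding this share as a covariate changed some values much. Such changed values stand beside the main value for some genes and in the section on processing for others, and are not given for every gene. In these bulk samples, fewer cells of a type and less RNA per cell cannot be told apart.

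No integrin or laminin gene passed the test between the genotypes. Of the 37 genes, 34 reached the mean FPKM of 0.1 needed for testing, and 0 of the 34 had an adjusted p below 0.05 together with a log2 fold change beyond 0.75 in either direction, against 0.460% of the 18035 genes tested (limma on log2(FPKM + 0.1), Benjamini-Hochberg over all genes tested). At an adjusted p below 0.05 and any fold change the count was again 0, against 0.582% of all genes. In simulated data this threshold found only 14% of genes changed by 0.5 on the log2 scale, so differences of that size can be missed. At an unadjusted p below 0.05, 1 member was higher and 5 were lower in Mc4r KO, against 12.0% and 8.83% of all genes tested. The 3 Mc4r KO libraries all lay above the 3 WT libraries for 4 tested members and below them for 7, against 14.1% and 12.4% of all genes. The median log2 fold change of the 34 was -0.0198, with 17 on either side of 0, beside -0.0111 over all genes. With 3 libraries a group, an exact permutation test of a single gene cannot go below p = 0.1, so the p-values given below are those of limma, which shares its estimate of the spread among genes. The p-values measure the spread between these 6 libraries, and the labels name no litter, cage or day for them.

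**Figure D1:**
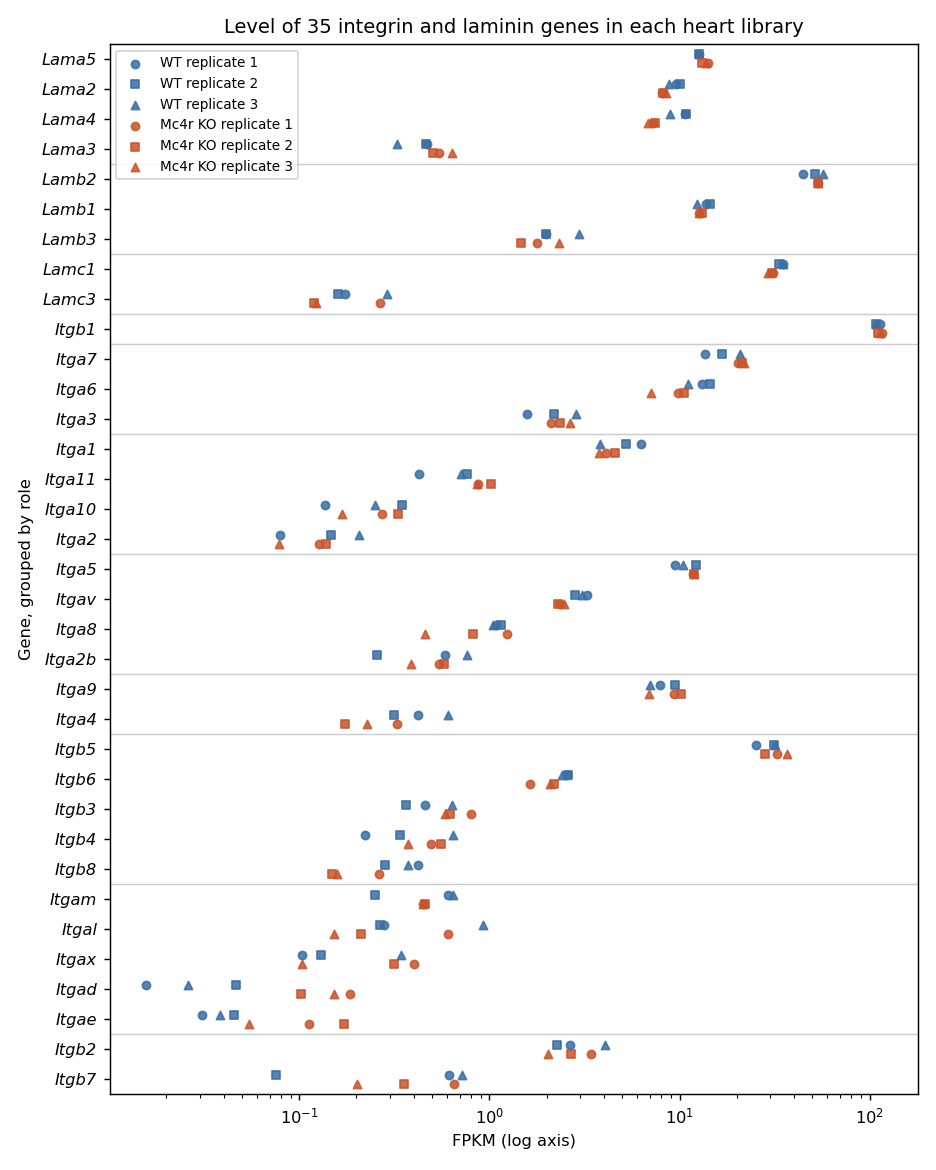
FPKM on a log axis of integrin and laminin genes with reads in more than 1 library, one row per gene and grouped by role, with blue marks for the WT and orange marks for the Mc4r KO libraries. Itgb1 stands highest, near 100 FPKM in every library, and most rows have blue and orange marks that overlap, with Lama4, Itga6 and Itgav among those that separate.

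On the FPKM scale, which is per gene length, levels spanned from Itgb1 at 110 ± 3.41 (SD, n = 3) in WT and 114 ± 2.21 in Mc4r KO down to Lama1, with a single read in a single library. The next levels in WT were Lamb2 at 51.0 ± 6.20 FPKM, Lamc1 at 34.5 ± 1.11 and Itgb5 at 29.5 ± 3.61. Lamc1 and Itgb5 did not differ beyond the spread of Itgb5 in Mc4r KO, at 30.3 ± 0.929 and 32.6 ± 4.28 FPKM. Itgb1 was thus the highest integrin gene, and Lamb2 and Lamc1 the highest laminin beta and gamma chains. The highest laminin alpha chains were Lama5, Lama4 and Lama2, each between 6.80 and 14.1 FPKM.

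The RefSeq table of start sites, on GRCm38.p6, held 23 of the 37 genes. The 250 bases before the start site are shown for Itgb1, the highest member, for Lama5, whose Mc4r KO libraries were all above WT, and for Itgav, whose Mc4r KO libraries were all below. They are written 5′ to 3′ on the strand of the gene, and capitals mark the GC box GGGCGG on either strand.
Itgb1: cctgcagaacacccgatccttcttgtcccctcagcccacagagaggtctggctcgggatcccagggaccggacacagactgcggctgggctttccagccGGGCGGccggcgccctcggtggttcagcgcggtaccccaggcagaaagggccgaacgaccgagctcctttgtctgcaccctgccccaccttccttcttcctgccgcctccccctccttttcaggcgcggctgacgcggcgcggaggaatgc
Lama5: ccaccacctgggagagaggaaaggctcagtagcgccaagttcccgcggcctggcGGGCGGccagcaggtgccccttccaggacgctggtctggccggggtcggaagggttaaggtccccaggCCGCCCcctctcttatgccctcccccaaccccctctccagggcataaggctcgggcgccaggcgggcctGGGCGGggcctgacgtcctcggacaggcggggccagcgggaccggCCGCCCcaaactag
Itgav: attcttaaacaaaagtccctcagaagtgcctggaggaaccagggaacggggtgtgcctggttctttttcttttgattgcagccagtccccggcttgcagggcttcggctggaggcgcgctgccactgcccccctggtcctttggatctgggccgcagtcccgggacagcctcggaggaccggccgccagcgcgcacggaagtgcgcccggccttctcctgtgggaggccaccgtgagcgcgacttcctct
The windows are chr8:128685404-128685653 on the plus strand for Itgb1, chr2:180225860-180226109 on the minus strand for Lama5 and chr2:83724147-83724396 on the plus strand for Itgav, and each ends at the base before the first base of the gene as deposited. Bases G and C made up 68.0% of the Itgb1 window, 72.4% of the Lama5 window and 64.4% of the Itgav window. Lama5 held 4 GC boxes, beginning 196, 128, 59 and 14 bases upstream of the start site, Itgb1 held 1 at 151 bases, and Itgav held 0. A GC box lay in 8 of the 23 members, or 34.8%, and in 32.7% of all 32851 promoters of this length. The TATA box TATAAA lay in 0 of the 23 and in 12.4% of all promoters, and the E-box CACGTG in 0 and in 6.0%. The AP-1 site TGACTCA and the ETS site CCGGAAG were each in 1 of the 23, against 4.5% and 6.9% of all promoters. None of these other motifs was in the 3 windows shown, so none overlapped a GC box there. These are matches of letters on both strands, not measured binding.

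Among the laminin alpha chains the largest difference was in Lama4, the chain of vascular and myocyte basement membranes whose loss in mice gives capillary and cardiac defects (ENSMUSG00000019846, mm10 chromosome 10, 38965515 to 39110188). Lama4 lay at 10.6, 10.8 and 8.91 FPKM in WT replicates 1 to 3 and at 7.21, 7.43 and 6.80 in Mc4r KO replicates 1 to 3. All 3 Mc4r KO libraries were below the lowest WT library, which was WT replicate 3. Lama4 averaged 7.15 ± 0.321 FPKM (SD, n = 3) in Mc4r KO and 10.1 ± 1.06 in WT, a log2 fold change of -0.49 with a 95% interval of -0.74 to -0.24. Its unadjusted p was 0.00214, the smallest of the members, and its adjusted p by limma was 0.0840. Without WT replicate 3 the Lama4 log2 fold change was -0.58 and the adjusted p 0.0162, in a fit where 10.3% of all genes had an adjusted p below 0.05. Its adjusted p was also below 0.05 with array weights (0.0331), with voom on the recovered reads (0.0299) and among protein-coding genes only (0.0498), where the shares of all genes below 0.05 were 6.37%, 4.70% and 3.40%. In none of these 4 fits, of 19 alternatives in all, did Lama4 reach the fold change of 0.75. In the other fits its adjusted p was above 0.05, between 0.192 and 0.244 without any 1 of the other 5 libraries and 0.148 with the replicate number as a block, and 0.518 with the mitochondrial share as a covariate.

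The other laminin alpha chains gave smaller or less certain differences. Lama2, the chain of the muscle basement membrane, lay at 9.62, 10.03 and 8.83 FPKM in WT and 8.12, 8.14 and 8.54 in Mc4r KO. Its groups did not overlap, the log2 fold change was -0.20 and the unadjusted p 0.0610, and with the mitochondrial share as a covariate the log2 fold change was -0.087. Lama5, the broadly made chain of adult endothelial and epithelial basement membranes, lay at 12.6, 12.7 and 12.6 FPKM in WT and 14.1, 13.2 and 13.7 in Mc4r KO. All Lama5 values in Mc4r KO were higher than those in WT, by 0.11 on the log2 scale with an unadjusted p of 0.191. That direction turned to -0.085 once FPKM were scaled to their sum outside the mitochondrial chromosome, and to -0.002 under quantile normalization, the first of which moved the median of all genes from -0.0111 to -0.188. Lama3, the chain of epithelial laminin, was low, at 0.469, 0.467 and 0.328 FPKM in WT and 0.546, 0.508 and 0.638 in Mc4r KO. These Lama3 groups did not overlap and the log2 fold change was 0.36, with an unadjusted p of 0.167. It was 0.22 without WT replicate 3 and 0.64 with the mitochondrial share as a covariate. Lama1, an early embryonic chain, had 0 reads in 5 libraries and 1 read in Mc4r KO replicate 2.

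Taken as shares of the summed FPKM of the 5 alpha chains, which no scaling between libraries can move, Lama4 made up 31.9%, 31.8% and 29.0% in WT and 24.1%, 25.4% and 22.9% in Mc4r KO. Lama5 made up 37.8%, 37.4% and 41.2% in WT and 47.0%, 44.98% and 46.2% in Mc4r KO. Neither share overlapped between the genotypes, Lama4 being the lower and Lama5 the higher in Mc4r KO. Both are shares of the same sum, so a lower Lama4 raises the share of Lama5 and the 2 are not separate results. The FPKM of Lama5 itself were higher by only 0.11 on the log2 scale, with an unadjusted limma p of 0.191. The share of Lama2 was near that of Lama4 in WT, at 29.0% ± 0.372 (SD, n = 3) beside 30.9% ± 1.65, and above it in Mc4r KO, at 27.9% ± 0.811 beside 24.1% ± 1.27. The Lama4 share was lower by 6.17 to 7.75 percentage points with any 1 library left out. Counted in reads rather than per length, Lama4 made up 28.65% in WT and 22.5% in Mc4r KO on average. These shares were computed after the differences in level were seen, and no test was made on them.

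**Figure D2:**
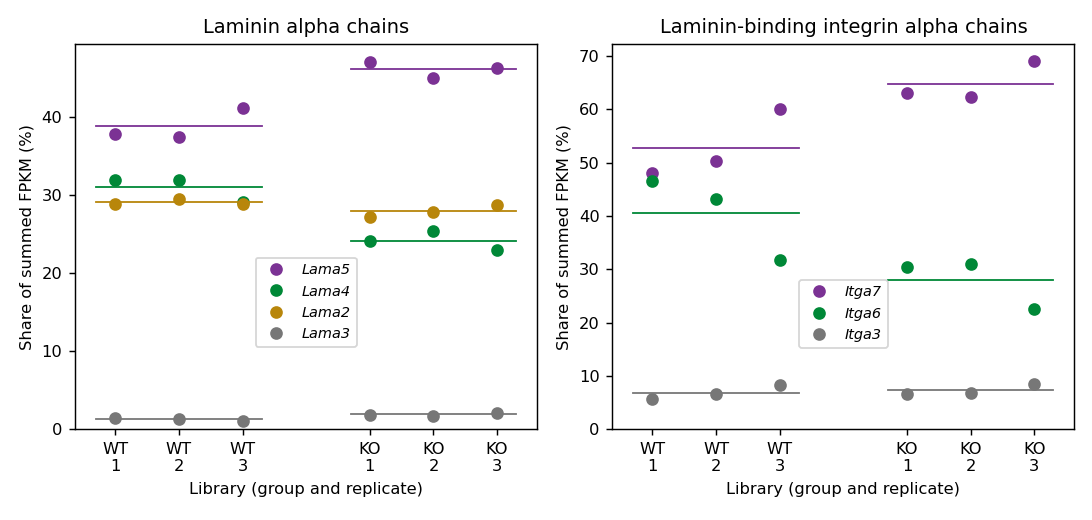
Share of the summed FPKM in percent (vertical axis) that each chain took in each library (horizontal axis), for the laminin alpha chains on the left and the laminin-binding integrin alpha subunits on the right, with a line at each group mean. Lama4 sits at 29.0% to 31.9% in WT and 22.9% to 25.4% in Mc4r KO, and Itga6 at 31.7% to 46.5% in WT and 22.5% to 30.9% in Mc4r KO.

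Lamb2, the highest laminin gene and the main beta chain of adult muscle and vessel laminins, lay at 44.6, 51.5 and 56.9 FPKM in WT and 53.2, 53.5 and 53.3 in Mc4r KO. The Mc4r KO values fell inside the WT range, and the log2 fold change was 0.07 with an interval of -0.17 to 0.31. Lamb1, its counterpart in developing tissue, was between 12.3 and 14.4 FPKM in all 6 libraries, and Lamb3, the beta chain of epithelial laminin, between 1.47 and 2.95. Both overlapped between the genotypes.

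Lamc1, the gamma chain of nearly all laminins in the heart (ENSMUSG00000026478, chromosome 1, 153218922 to 153332786), lay at 35.2, 33.2 and 35.0 FPKM in WT and 31.0, 30.6 and 29.2 in Mc4r KO. The groups did not overlap, and the log2 fold change was -0.185 ± 0.07 (SE), with an unadjusted p of 0.0394 and an adjusted p by limma of 0.217. Lamc3, a minor gamma chain, had 11 to 30 reads a library and overlapped between the groups.

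The 3 alpha subunits that bind laminin are encoded by Itga3, Itga6 and Itga7. Itga6, which with beta 1 is a laminin receptor of endothelium (ENSMUSG00000027111, chromosome 2, 71745616 to 71858416), lay at 13.1, 14.4 and 11.02 FPKM in WT and 9.82, 10.6 and 7.12 in Mc4r KO. The groups did not overlap, though WT replicate 3 and Mc4r KO replicate 2 were close. Its averages were 12.8 ± 1.70 FPKM (SD, n = 3) in WT and 9.17 ± 1.81 in Mc4r KO, and the log2 fold change was -0.49 with an interval of -0.89 to -0.09. The unadjusted p was 0.0227 and the adjusted p by limma 0.172. Without Mc4r KO replicate 3, the lowest library, the log2 fold change was -0.32 with an unadjusted p of 0.0601. Words of 50 bases shared with other genes made up 5.31% of the Itga6 exons, so some of its reads may have been left out or placed elsewhere.

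Itga7, the main laminin-binding alpha subunit of striated muscle, lay at 13.5, 16.7 and 20.9 FPKM in WT and 20.4, 21.3 and 21.8 in Mc4r KO. WT replicate 3 reached the Mc4r KO range, while WT replicates 1 and 2 lay below it. The log2 fold change was 0.33 with an interval of -0.03 to 0.69 and an unadjusted p of 0.0643. Without WT replicate 3 it was 0.49 with an adjusted p of 0.0408, and Itga7 and Lama4 were then the 2 members of 35 below 0.05, against 10.3% of all genes. Without WT replicate 1, in turn, the Itga7 log2 fold change was 0.18 with an adjusted p of 0.518. With the mitochondrial share as a covariate it was -0.09. Itga3, an alpha subunit of epithelium and vessels, lay between 1.58 and 2.86 FPKM with the groups overlapping.

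Within the 3 laminin-binding subunits, Itga6 took 46.5%, 43.2% and 31.7% of the summed FPKM in WT and 30.4%, 30.9% and 22.5% in Mc4r KO. Itga7 took 48.0%, 50.2% and 60.1% in WT and 63.1%, 62.3% and 69.0% in Mc4r KO. Neither share overlapped, and WT replicate 3 was the WT library closest to Mc4r KO for both. Itga3 took only 5.6% to 8.4% of the sum, so the Itga6 and Itga7 shares nearly mirror each other and are not separate results. The FPKM of Itga7 itself overlapped between the genotypes, and no test was made on these shares. The sum of the 3 subunits was 28.2 to 34.8 FPKM in WT and 31.6 to 34.2 in Mc4r KO, which overlap.

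Cell type markers were read beside these results. The 10 endothelial markers, none of them at 0, summed to 218.5 to 256 FPKM in WT and 231.3 to 269.3 in Mc4r KO, and 3 of the 10 (Tie1, Egfl7, Esam) were higher and 1 (Erg) lower at an unadjusted p below 0.05. Over all genes 12.0% were higher and 8.83% lower at that p. The summed endothelial level overlapped between the genotypes, and its part in the Lama4 and Itga6 values was not tested. The 10 cardiomyocyte markers summed to 19430 to 20450 FPKM in WT and 23490 to 25510 in Mc4r KO. Of the 10, 2 (Actc1, Ryr2) were higher and 0 lower at an unadjusted p below 0.05. The log2 fold change was above 0 for 9 of the 10. The groups did not overlap for 5 of the 10 with Mc4r KO higher, and for 0 with it lower. Over all genes these shares were 14.1% and 12.4%. WT replicate 3 had the lowest cardiomyocyte sum, at 19430 FPKM, and the highest Itga7 of the WT libraries, at 20.9 FPKM. It was also the library with 857.9 FPKM of atrial markers. The median log2 fold change of the cardiomyocyte list was 0.1931, or -0.0026 with FPKM scaled to their sum outside the mitochondrial chromosome. The part of cardiomyocyte content in these results was not tested. With the mitochondrial share as a covariate, the log2 fold change of Lama4 was -0.25 with an adjusted p of 0.518 and that of Itga6 was -0.15 with an adjusted p of 0.869. In that fit 2 of all genes tested were called, in place of 83. The share and the genotype cannot be told apart with these libraries.

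**Figure D3:**
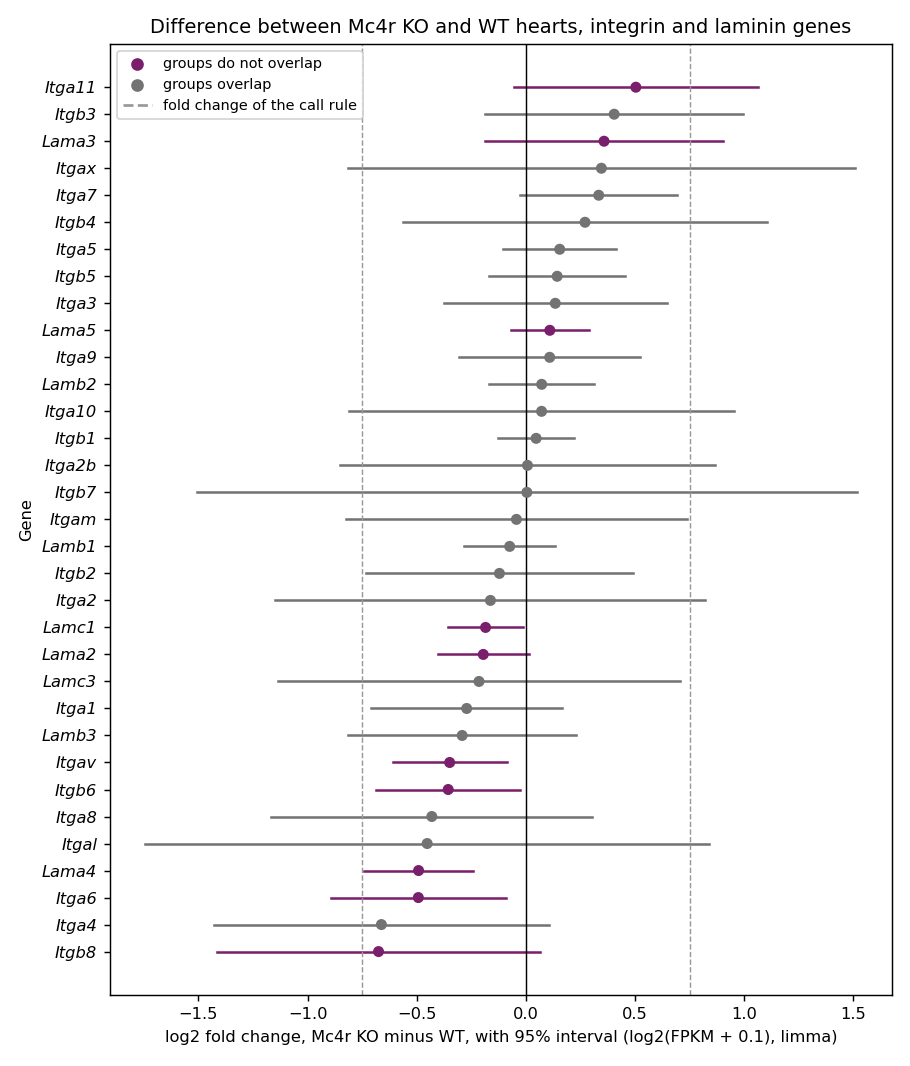
log2 fold change of tested genes, Mc4r KO minus WT, with limma's 95% interval (horizontal axis, log2(FPKM + 0.1)) and one row per gene, purple where the 3 libraries of each group do not overlap. Lama4 at -0.49 has an interval clear of 0, and dashed lines mark the fold change of 0.75 that no estimate shown passes.

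Collagen is bound by the alpha subunits encoded by Itga1, Itga2, Itga10 and Itga11. Itga1, which is made by vessels and stroma and was the highest of the 4, lay at 6.31, 5.23 and 3.81 FPKM in WT and 4.10, 4.56 and 3.78 in Mc4r KO. WT replicate 3 sat within the Mc4r KO range, and the log2 fold change was -0.27 with an unadjusted p of 0.188. It was -0.46 without WT replicate 3, -0.11 without WT replicate 1 and 0.28 with the mitochondrial share as a covariate. Itga11, a collagen receptor of fibroblasts, lay at 0.428, 0.760 and 0.710 FPKM in WT and 0.866, 1.03 and 0.863 in Mc4r KO. The Itga11 groups did not overlap, and the log2 fold change was 0.50 with an interval of -0.06 to 1.06 and an unadjusted p of 0.0711. It was 0.28 without WT replicate 1 and 0.26 with the mitochondrial share as a covariate. The 10 fibroblast markers, none of them at 0, summed to 639.8 to 886.5 FPKM in WT and 564.2 to 738.1 in Mc4r KO, and 4 of the 10 (Pdgfra, Dcn, Lum, Ddr2) were lower at an unadjusted p below 0.05. That compares with 8.83% of all genes, and the median log2 fold change of the fibroblast list was -0.3187, or -0.071 without WT replicate 3. The part of fibroblast content in the Itga11 value was not tested. Itga2 and Itga10 had 8 to 26 reads a library, and 33.5% of the Itga10 exonic bases also belong to the annotated gene Gm42957 on the same strand, which had 0 reads throughout.

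RGD-binding alpha subunits are encoded by Itgav, Itga5, Itga8 and Itga2b. Itgav (ENSMUSG00000027087, chromosome 2, 83724397 to 83806916), whose product binds vitronectin and activates latent TGF-beta with its beta partners, lay at 3.26, 2.83 and 3.09 FPKM in WT and 2.36, 2.304 and 2.47 in Mc4r KO. Every Mc4r KO library was below every WT library. Itgav averaged 2.38 ± 0.0820 FPKM (SD, n = 3) in Mc4r KO and 3.06 ± 0.216 in WT, and the log2 fold change was -0.35 with an interval of -0.61 to -0.09. The unadjusted p was 0.0155 and the adjusted p by limma 0.148. With the mitochondrial share as a covariate the Itgav log2 fold change was -0.36 with an adjusted p of 0.529, so its size moved less than those of Lama4 and Itga6 did. The gene Gm13684 on the opposite strand covers 5.90% of the Itgav exonic bases, and whether the counting used strand is not given in the sources used here.

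Itga5, the fibronectin receptor subunit, was the highest of the 4 at 9.42, 12.2 and 10.4 FPKM in WT and 11.7, 11.9 and 11.9 in Mc4r KO. The Itga5 groups overlapped, with a log2 fold change of 0.15. Itga8, the nephronectin receptor subunit, ranged from 1.04 to 1.15 FPKM in WT and from 0.457 to 1.24 in Mc4r KO, and Itga2b, the platelet subunit, had 20 to 71 reads a library with the groups overlapping.

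The groups did not overlap for 2 of the 8 beta subunits, both lower in Mc4r KO, against 12.4% of all genes. Itgb1 lay at 114, 108 and 108 FPKM in WT and 116, 111 and 114 in Mc4r KO, a log2 fold change of 0.05 with an interval of -0.13 to 0.22. The groups overlapped and the unadjusted p was 0.553 for this shared partner of the laminin and collagen receptors. Itgb6, the epithelial beta partner of alpha v (ENSMUSG00000026971, chromosome 2, 60598292 to 60722643), lay at 2.56, 2.60 and 2.42 FPKM in WT and 1.64, 2.17 and 2.08 in Mc4r KO. All Mc4r KO values were below WT, and the log2 fold change was -0.36 ± 0.14 (SE), with an unadjusted p of 0.0383 and an adjusted p by limma of 0.216. Itgb8, another partner of alpha v that activates TGF-beta, lay at 0.423, 0.283 and 0.372 FPKM in WT and 0.262, 0.149 and 0.158 in Mc4r KO. Those Itgb8 values come from 45 to 70 reads in WT and 25 to 45 in Mc4r KO, and the log2 fold change was -0.68 with an interval of -1.42 to 0.07.

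Itgb5, the highest beta subunit after Itgb1, lay at 25.3, 31.4 and 31.7 FPKM in WT and 32.7, 28.2 and 36.8 in Mc4r KO, overlapping. Its log2 fold change was 0.14, while 7.26% of its exonic words of 50 bases also occur in other genes. Itgb3, of platelets and vessels, ranged from 0.366 to 0.637 FPKM in WT and 0.581 to 0.797 in Mc4r KO, and Itgb4, the beta partner of alpha 6 in hemidesmosomes, from 0.222 to 0.644 and 0.373 to 0.554.

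Of the pair that binds VCAM1, tenascin and fibronectin's connecting segment, Itga9 lay at 7.90, 9.49 and 6.99 FPKM in WT and 9.35, 10.2 and 6.88 in Mc4r KO. These Itga9 groups overlapped, with a log2 fold change of 0.11, or 0.43 with the mitochondrial share as a covariate. Itga4, the alpha subunit of lymphocytes and monocytes, ranged from 0.314 to 0.605 FPKM in WT and from 0.174 to 0.327 in Mc4r KO.

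The leukocyte integrins were low in all libraries. Itgb2, the shared beta subunit of the beta 2 family, lay at 2.65, 2.26 and 4.08 FPKM in WT and 3.44, 2.67 and 2.04 in Mc4r KO. WT replicate 3 was the highest, the groups overlapped and the log2 fold change was -0.12. The Itgb2 log2 fold change was 0.12 without WT replicate 3 and -0.66 with the mitochondrial share as a covariate. Itgam, the alpha subunit of macrophages and neutrophils, lay at 0.607, 0.249 and 0.643 FPKM in WT and 0.449, 0.459 and 0.447 in Mc4r KO. The Itgam groups overlapped, with a log2 fold change of -0.04, or -0.40 with the mitochondrial share as a covariate. Of the Itgam exonic bases 68.7% are shared with the annotated gene Gm49368, which had 0 reads in each library, so the Itgam level is uncertain. Itgal, Itgax and Itgb7 ranged from 0.0754 to 0.921 FPKM with overlapping groups. Itgad, with 1, 3 and 2 reads in WT and 13, 7 and 11 in Mc4r KO, and Itgae, with 2, 3 and 3 reads in WT and 8, 12 and 4 in Mc4r KO, were below the level needed for testing. Their Mc4r KO values were all above WT, and Itgad shares stretches of sequence with Itgax, so its reads are uncertain. Macrophage markers summed to 199.5 to 314 FPKM in WT and 248.4 to 315.7 in Mc4r KO, and neutrophil markers to 2.372 to 17.73 and 2.045 to 3.842, with WT replicate 3 the highest WT library in both. At an unadjusted limma p below 0.05, 0 of 10 tested macrophage markers were higher and 3 lower. Of 6 tested neutrophil markers 0 were higher and 2 lower. Over all genes tested 12.0% were higher and 8.83% lower at that p.

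**Figure D4:**
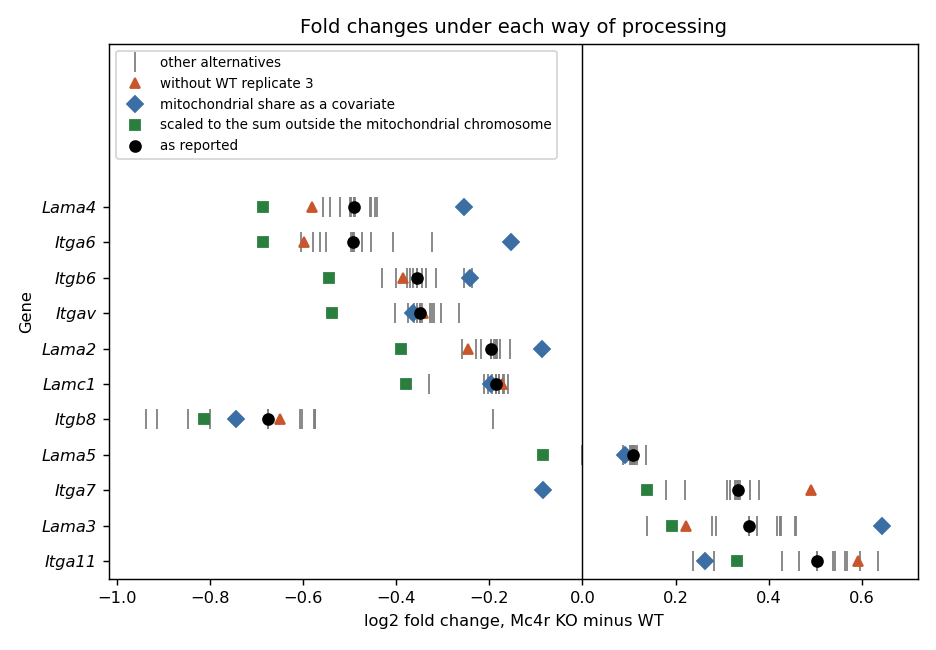
log2 fold change, Mc4r KO minus WT, of Itga7 and of tested genes whose groups do not overlap, one row per gene, as reported (black circle) and under each other way of processing the values. Lama4 stays below 0 in all of them, between -0.69 and -0.25, while Lama5 and Itga7 cross 0.

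The partners of laminin in the basement membrane and its anchoring complexes were read from a list. None of the 23 basement membrane partners tested was called, against 0.460% of all genes, but 6 were higher and 5 lower at an unadjusted p below 0.05, against 12.0% and 8.83%. Col4a1, a chain of the type IV collagen network that laminin is laid beside, was at 48.8, 60.6 and 53.8 FPKM in WT and 78.4, 89.0 and 74.9 in Mc4r KO, with every Mc4r KO library higher, a log2 fold change of 0.57 and an adjusted p by limma of 0.0719. Its partner chain Col4a2 gave 0.54 with an adjusted p of 0.0945, and Dag1, the dystroglycan that binds the laminin alpha 2 chain, gave 0.52 with an adjusted p of 0.0766. Col4a4, a chain of another type IV network, lay lower, with a log2 fold change of -0.56 and an adjusted p of 0.131. Without WT replicate 3 none of these 4 was called or reversed. In that fit the adjusted p by limma was below 0.05 for Col4a1 (0.0409) and Dag1 (0.0379). It was 0.0622 for Col4a2 and 0.138 for Col4a4, and 10.3% of all genes were below 0.05.

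Among 50 integrin adaptors and signalling genes, 48 were tested and 0 were called, while 13 were higher and 3 lower at an unadjusted p below 0.05. Over all genes tested 0.460% were called, 12.0% were higher and 8.83% lower by the same rules. Lims2, a PINCH adaptor that forms a complex with integrin-linked kinase and the parvins, lay at 20.2, 23.6 and 21.3 FPKM in WT and 37.8, 33.8 and 34.1 in Mc4r KO. The groups were far apart beside their spread, with a log2 fold change of 0.70 ± 0.09 (SE) and an adjusted p by limma of 0.0415. Itgb1bp2, which encodes melusin, a muscle protein that binds the tail of beta 1, lay at 67.4, 64.0 and 69.9 FPKM in WT and 96.2, 102 and 99.9 in Mc4r KO. Its log2 fold change was 0.57 ± 0.08 (SE) with the same adjusted p of 0.0415. Both were past the adjusted p of 0.05 and short of the fold change of 0.75. Over 19 alternatives their adjusted p ranged from 0.00705 to 0.244 for Lims2 and from 0.00917 to 0.237 for Itgb1bp2. It was below 0.05 in 8 of the 19 for each gene. Those 8 include the alternative that changed only the call rule, which repeats the reported adjusted p of 0.0415.

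Of the other adaptors, Flnc, which encodes the filamin of muscle, lay at 19.2, 26.7 and 23.7 FPKM in WT and 34.7, 48.3 and 42.8 in Mc4r KO. Its log2 fold change of 0.85 was beyond 0.75 but its adjusted p by limma was 0.0666. Flnc was called under 5 of the 19 alternatives, among them the fit without WT replicate 3 (adjusted p 0.0408), in which 4.04% of all genes were called. Parvb, a parvin of muscle, gave 0.57 with an adjusted p of 0.0579, and Cd151, a tetraspanin that associates with the laminin-binding integrins, gave 0.49 with an adjusted p of 0.0635. The median log2 fold change was 0.0436 over the 48 adaptors and -0.023 over the 23 basement membrane partners, beside -0.0111 over all genes.

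Of 34 other integrin ligands, 25 were tested and 0 were called, with 2 higher and 1 lower at an unadjusted p below 0.05. The shares over all genes tested were 0.460%, 12.0% and 8.83%. Adam15, a membrane disintegrin and protease, gave a log2 fold change of 0.56 with an adjusted p by limma of 0.0744. Mfge8, a secreted ligand of the alpha v receptors, gave 0.32 with an adjusted p of 0.133. Ctgf, a matricellular ligand, gave -0.51 with an adjusted p of 0.187. The opposite strand carries another gene over 20.6% of the Adam15 and 23.2% of the Ctgf exonic bases, so both values are uncertain.

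**Figure D5:**
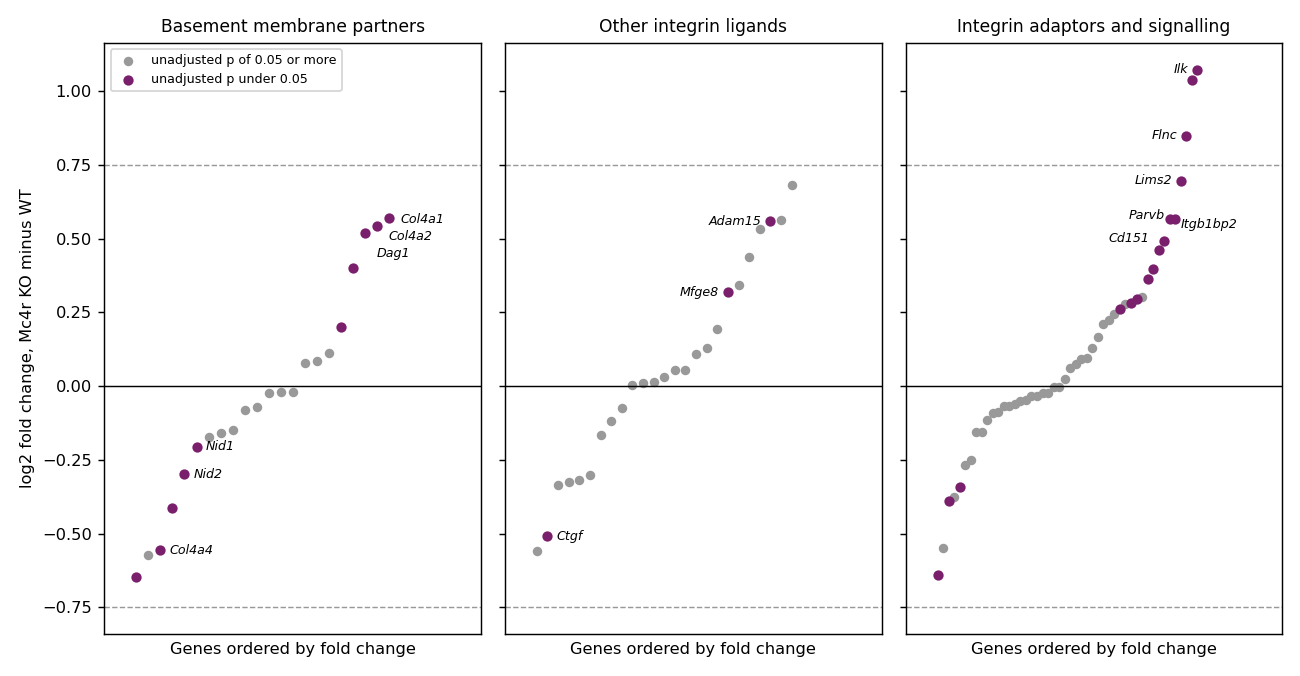
log2 fold change, Mc4r KO minus WT (vertical axis), of tested genes of 3 lists, ordered by value, with purple points where the unadjusted limma p was below 0.05. Lims2 and Itgb1bp2 at 0.70 and 0.57 are the 2 genes with an adjusted p below 0.05, and both lie inside the dashed lines at 0.75.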

How the data were processed

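Heart RNA of 3 Mc4r KO and 3 WT mice was sequenced on Illumina from polyA-selected libraries made with a NEB kit. Per the study's methods the authors filtered the read pairs, aligned them with HISAT2 (v2.0.5; genome mm10 per the submitters' processing notes), counted reads per gene with featureCounts and computed FPKM, and the deposited table holds these FPKM values, 1 column per library. The annotation release and the strand setting are not given in the sources used here. Counting without strand cannot separate a gene from a partner on the opposite strand. The libraries were scaled by more than their totals: over genes above 0 in all libraries, the median ratio of a gene's FPKM to its geometric mean was 1.0058 in every library, so a typical gene is level between them by construction.

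The deposited FPKM were tested with limma 3.58.1 (R 4.3.3) on log2(FPKM + 0.1) with an empirical Bayes trend and no covariate, over the 18035 genes that averaged 0.1 FPKM or more across the 6 libraries. P-values were adjusted by Benjamini-Hochberg over all of these, and the call rule was an adjusted p below 0.05 with an absolute log2 fold change above 0.75, the study's thresholds. Fold changes are on the log2(FPKM + 0.1) scale, which understates those of low genes. FPKM times gene length gave whole reads for 100% of values (tolerance 0.02 reads). These recovered reads ranged from 14691076 to 16047003 a library, where 3 reads on a gene of 1 kb equal 0.176 to 0.213 FPKM, and were used for voom. No raw counts were used. The column of gene length was used as deposited. The scripts were tested on simulated data, with 50 changed genes at each size of change. At a log2 change of 0.5 the main test gave 14% of them an adjusted p below 0.05, and at a log2 change of 1 it gave 70%. GENCODE M21 gave exon overlaps, and 99.9% of the deposited identifiers were in it.

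Values in all libraries are given for members with an unadjusted p below 0.05, with groups that do not overlap, or highest in their role. Of each partner list, called genes and up to 5 with the smallest unadjusted p below 0.05 are named, with the remaining members as ranges. Some genes are not reported here, and they stay in the counts and medians. The members, the lists of partners and markers and the tests were chosen with earlier results of these data known. The genes Ccn1 and Ccn2 were matched by their older symbols Cyr61 and Ctgf.

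Alternatives covered the pseudocount, the filter, scaling, trend, weights, covariate, block, genes tested, call rule and each library left out.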

Additional observations from a re-analysis of the deposited data

How the results depend on the processing

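No integrin or laminin gene was called under any of the 19 alternatives. The count over all genes, 83 as reported, was 44 with a pseudocount of 1, 22 with no filter on low values, 147 with a mean FPKM of at least 1, 41 with FPKM scaled to their sum outside the mitochondrial chromosome, 49 after quantile normalization, 21 without the trend, 435 with array weights, 2 with the mitochondrial share as a covariate, 324 with voom on recovered reads and 204 among protein-coding genes only. Leaving out 1 library gave 7 to 726, the 726 being without WT replicate 3. Scaling outside the mitochondrial chromosome gave 16 higher and 25 lower calls in place of 57 and 26. The cause was not tested.

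Libraries of the same replicate number did not vary together: deviations from the group means correlated at -0.141, 0.0074 and -0.0818 for replicates 1, 2 and 3. Whether the mice were paired by litter, cage or day cannot be read from this. With the replicate number as a block, 11 genes and 0 integrins or laminins were called.

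Of 585 values under an alternative of the 31 integrin, laminin and partner genes whose log2 fold changes the main results give, 23 reversed, in 10 genes. Members given only as ranges are not in that count, and 10 of them (Itga2, Itga2b, Itga3, Itga10, Itgal, Itgax, Itgb3, Itgb4, Itgb7 and Lamb1) also changed sign under 1 to 6 alternatives. Scaled outside the mitochondrial chromosome, the log2 fold change was -0.085 for Lama5, -0.149 for Itgb1, -0.123 for Lamb2, -0.0395 for Itga5, -0.0847 for Itga9 and -0.052 for Itgb5. After quantile normalization it was -0.002 for Lama5, -0.0954 for Itgb1, -0.0946 for Lamb2, -0.0127 for Itgb5 and 0.0568 for Itgam. With the mitochondrial share as a covariate it was -0.154 for Lamb2, -0.0858 for Itga7, 0.284 for Itga1 and -0.105 for Itgb5. With array weights it was 0.0312 for Itgb2 and 0.175 for Itgam. With 1 library left out it ranged from -0.0215 to 0.155 for Lamb2 (lowest without WT replicate 1), from -0.0076 to 0.276 for Itga9 (lowest without Mc4r KO replicate 2), from -0.301 to 0.117 for Itgb2 (0.0615 without Mc4r KO replicate 3, highest without WT replicate 3) and from -0.3945 to 0.149 for Itgam (0.114 without WT replicate 1, highest without WT replicate 3).

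The low members rest on few reads: Itgad had 1 to 13 a library, and with no filter on low values its unadjusted p was 0.0102 and its adjusted p 0.183.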

Other observations

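Nidogens link the laminin gamma 1 chain to type IV collagen, and their values are given after they were seen. Nid1 lay at 36.1, 31.6 and 32.3 FPKM in WT and 29.1, 29.4 and 28.1 in Mc4r KO, a log2 fold change of -0.21 with an unadjusted limma p of 0.0403. Nid2 lay at 5.96, 5.38 and 6.39 FPKM in WT and 5.02, 4.15 and 5.23 in Mc4r KO, a log2 fold change of -0.30 with an unadjusted p of 0.0465. Neither had an adjusted p below 0.05 (0.219 and 0.233), and in both every Mc4r KO library lay below every WT library, as in Lamc1. The groups were apart in this way for 7 of the 23 basement membrane partners, and for 6 with Mc4r KO higher. Over all genes tested the shares were 12.4% lower and 14.1% higher.

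Ilk, the integrin-linked kinase, was listed at 0.0775, 0.152 and 0.278 FPKM in WT and 0.423, 0.552 and 0.363 in Mc4r KO. Genes on the opposite strand, Rrp8 and Taf10, cover 89.7% of its exonic bases, so these values are uncertain.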
